A study of Homo sapiens with 6 samples.

Results

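Interferon-stimulated genes were followed in A2780, a human ovarian cancer cell line, with and without recombinant human CRMP2 (r-CRMP2). CRMP2, collapsin response mediator protein-2, is a microtubule-associated protein that the study measured in the medium of fibroblasts from ovarian tumors. The labels give 3 untreated libraries and 3 libraries of cells that received r-CRMP2 at 40 ng/ml, all at 48 h and all labelled wild type. Both groups grew in DMEM with serum, and the controls are described only as untreated, with no carrier named. The members were a fixed list of 37 gene symbols, matched to the gene names of the deposited count tables. All 37 were found among the 44591 genes listed, and 30 of them passed edgeR's filter on low counts and were tested, out of 16222 genes tested in all. The study asked which pathways r-CRMP2 changes in these cells. One cell line was used, no library was treated with an interferon, and nothing in the labels says that replicates were separate cultures, so the p-values measure only the spread between these libraries.

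Interferons are secreted proteins that bind cell-surface receptors. Type I and lambda interferons activate STAT2 through the kinases JAK1 and TYK2. Together with IRF9, STAT2 is part of the factor ISGF3, which binds the interferon-stimulated response element (ISRE) in the promoters of its targets, while the gamma-activated site (GAS) is the element of the response to interferon gamma. The targets include antiviral effectors, sensors of foreign nucleic acid, and factors that turn the response up or down. Some tumor cells express part of this program without added interferon.

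Promoter sequences are shown because they hold runs of letters that match the core of the ISRE, the element that ISGF3 binds. They are windows of 8 of the 10 members that passed the test below and hold such a match. DDX60 and PARP9 were left out, and the windows were chosen after the values were seen. They come from RefSeq (GRCh38.p14), on the strand of the gene, with the ISRE core GAAANNGAAA or its reverse complement TTTCNNTTTC in capitals. Windows lie at chr10:89392488-89392547 (plus strand) for IFIT1, chr10:89414513-89414583 (plus) for IFIT5, chr1:78620274-78620394 (plus) for IFI44L, chr11:313990-314053 (plus) for IFITM1, chr11:320870-320929 (minus) for IFITM3, chr19:17405723-17405782 (minus) for BST2, chr15:88638922-88638981 (plus) for ISG20 and chr12:112938321-112938481 (plus) for OAS3.
IFIT1: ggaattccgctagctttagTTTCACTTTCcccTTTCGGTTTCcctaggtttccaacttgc
IFIT5: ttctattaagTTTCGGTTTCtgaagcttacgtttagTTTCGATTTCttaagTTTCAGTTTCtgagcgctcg
IFI44L: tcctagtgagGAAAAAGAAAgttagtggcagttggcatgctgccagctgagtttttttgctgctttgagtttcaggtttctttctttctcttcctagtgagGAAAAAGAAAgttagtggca
IFITM1: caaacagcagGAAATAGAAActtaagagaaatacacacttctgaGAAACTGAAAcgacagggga
IFITM3: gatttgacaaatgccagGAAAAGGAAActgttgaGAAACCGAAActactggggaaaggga
BST2: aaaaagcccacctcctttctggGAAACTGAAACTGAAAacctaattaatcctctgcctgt
ISG20: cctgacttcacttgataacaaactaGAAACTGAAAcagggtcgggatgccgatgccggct
OAS3: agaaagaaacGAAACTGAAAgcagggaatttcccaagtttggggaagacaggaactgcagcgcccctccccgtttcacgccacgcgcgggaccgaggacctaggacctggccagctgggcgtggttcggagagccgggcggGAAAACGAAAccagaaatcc

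Not all of the 4 genes that fell past both thresholds in the main fit held an ISRE core match. IFIT5 held 3 ISRE core matches, IFIT1 and IFI44L held 2 each, and IFI35 held none. IFI35 passed the fold threshold only narrowly (log2 fold change -1.01), and with DESeq2 or RLE size factors it stood at -0.99 and missed it. In IFI35 the window held 1 GAS match, TTCACGGAA, that starts 22 bases before the gene start (position -22). Of the 8 members that rose, 6 had a promoter in the RefSeq table, and all 6 held an ISRE core match (IFITM1, IFITM3, BST2, ISG20, OAS3 and DDX60). Of the 8 that fell, 8 had a promoter and 4 held a match (IFIT1, IFIT5, IFI44L and PARP9). Among the tested members past no threshold, 8 of 10 with a promoter held one. These counts cover the 24 of 30 tested members (80.0%) that have a promoter in the table, and no test was made on them.

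For the whole list, promoters reaching from 250 bases before to 50 bases after the gene start were found for 29 of 37 members (78.4%). An ISRE core match stood in 20 of the 29 (69.0%), against 1195 of 27305 genes in the table (4.38%) and 1255 of 35116 promoters of this length (3.57%). A GAS match, TTCNNNGAA, stood in 10 of the 29 (34.5%), against 9.38% of genes and 7.66% of promoters. Because fewer than 80% of the list had a promoter, the comparison of these shares is void and is given as counts. In BST2, HERC5, IFIH1 and ISG15 some ISRE core matches overlap each other, and in IFITM1, BST2, IFI27 and MX1 an ISRE core match overlaps a GAS match. A match is a run of letters, and binding was not measured.

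Per unit of transcript length, 4 membrane proteins that keep viruses from entering or leaving cells dominated the list. Levels between genes are compared in TPM, the deposited values in which counts are divided by gene length and rescaled to the same total in each library. In the untreated group IFITM3 stood at 1978 ± 11.0 TPM (SD, n = 3), IFITM1 at 1455 ± 22.7, IFITM2 at 812 ± 26.0 and BST2 at 494 ± 10.6. The gaps between these 4 neighbours in the order were larger than the spread of either neighbour. IRF7, a transcription factor of the interferon genes, came next at 27.7 ± 2.45 TPM, followed by ISG15 at 20.7 ± 2.25, SAMHD1 at 17.9 ± 2.71, IFI6 at 17.1 ± 1.75, EIF2AK2 at 16.7 ± 0.818 and IFI35 at 16.3 ± 0.734. From SAMHD1 to IFI35, neighbouring means differed by less than the larger SD of the pair, and ISG15 lay above SAMHD1 by little more than their SDs. In all, 8 members lay between 10 and 100 TPM, 10 between 1 and 10 TPM, and 15 under 1 TPM, down to OAS2 at 0.0382 ± 0.0395.

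IFITM1, IFITM2, IFITM3 and BST2 held 88.5% to 89.5% of the counts on the list in the untreated libraries and 91.8% to 92.0% in the r-CRMP2 libraries. The 37 members together took 0.177% to 0.178% of all counts in the untreated libraries and 0.184% to 0.190% in the r-CRMP2 libraries. Their summed TPM was 4868 to 4952 in the untreated group and 5201 to 5305 in the r-CRMP2 group, so these sums did not overlap. A sum over the list therefore follows mainly the membrane genes.

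**Figure D1:**
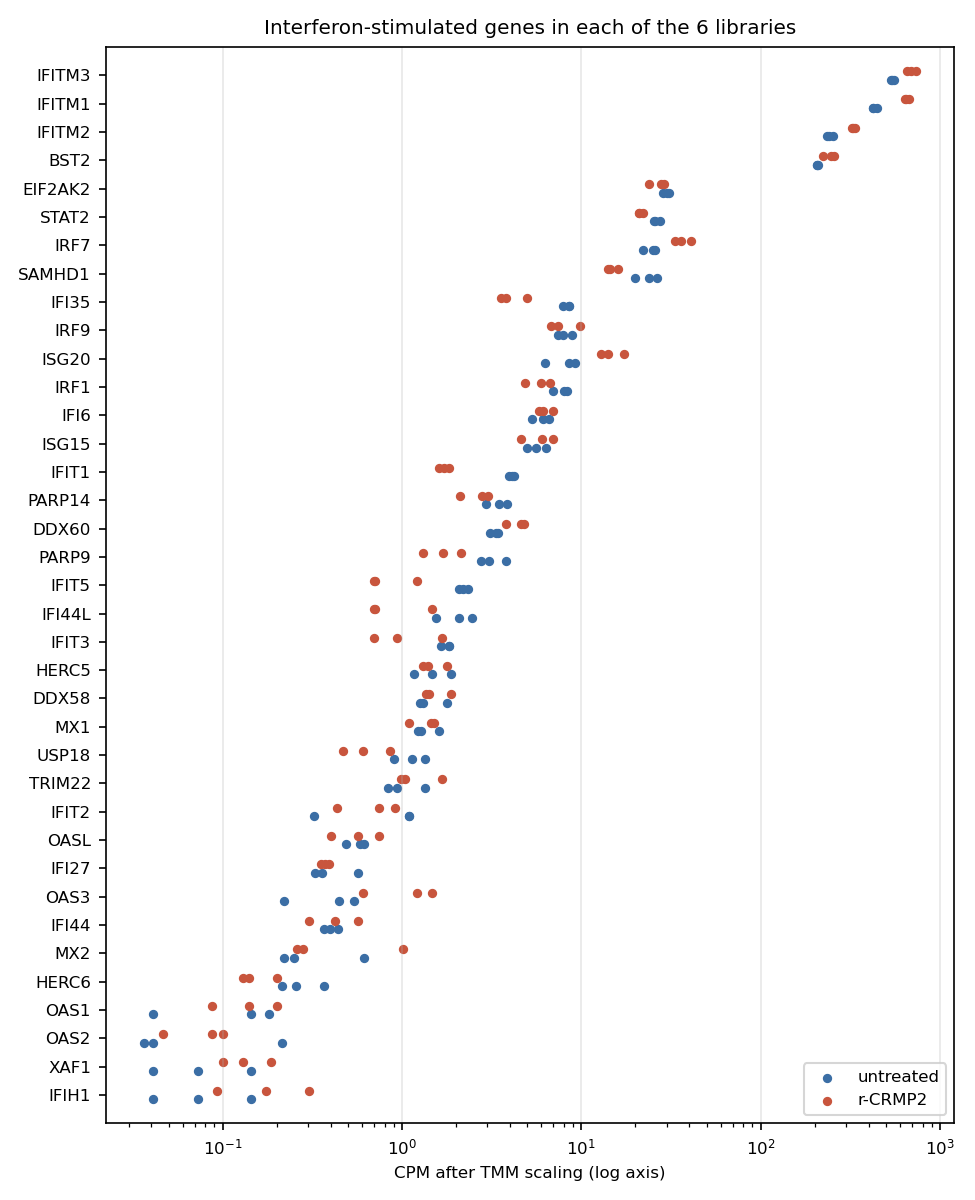
Level of each of the 37 members in the 3 untreated (blue) and 3 r-CRMP2 libraries (red), 1 point per library, in CPM after TMM scaling on a log axis. The 4 membrane genes lie between 205 and 733 CPM in every library, and CPM is not divided by gene length.

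The libraries held between 21888530 and 25711353 counts, and 3 counts, the number that a count of 0 still allows, correspond to 0.108 to 0.152 CPM. Within groups, the counts of each pair of libraries were further apart than sampling allows (chi-square per degree of freedom between 3.86 and 10.9 for the 6 pairs), so none was treated as a copy of another. CPM below means counts scaled to a common library size after TMM, with no division by gene length. The TMM factors were 1.10 to 1.12 in the untreated and 0.878 to 0.922 in the r-CRMP2 libraries. How libraries are scaled shifts every gene: over all 16222 genes tested, the middle log2 fold change was -0.03 under TMM and -0.34 when only library size was used. In bulk RNA, fewer cells that express a gene and less of its RNA per cell cannot be told apart.

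At an adjusted p-value below 0.05 from edgeR's quasi-likelihood test (Benjamini-Hochberg over all genes tested), 8 members rose with r-CRMP2, 8 fell and 14 did not pass. Of all genes tested, 28.2% rose and 30.1% fell, which is 58.2% in either direction, so the members' 26.7%, 26.7% and 53.3% lay near the background. The genes that rose were IFITM1, IFITM2, IFITM3, BST2, OAS3, ISG20, DDX60 and IRF7. Those that fell were IFIT1, IFIT5, IFI35, IFI44L, SAMHD1, PARP9, STAT2 and IRF1. With an absolute log2 fold change over 1 as well, OAS3 alone rose (3.33% of members, background 5.12%) and IFIT5, IFIT1, IFI44L and IFI35 fell (13.3%, background 8.86%). Without r-CRMP2 replicate 1 the latter count was 2, and with at least 10 counts asked of every library no member rose past both. All 3 r-CRMP2 libraries lay above all 3 untreated libraries for 8 members (26.7%, background 30.9%) and below them for 9 members (9 of 30, background 33.3%). The median log2 fold change of the tested members was 0.0062, and that of all genes tested was -0.03. With library size alone, 4 members rose and 12 fell, in a fit where 2171 of all genes rose and 8449 fell. The falls gained in that fit were in IFIT3, USP18, PARP14 and EIF2AK2.

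**Figure D2:**
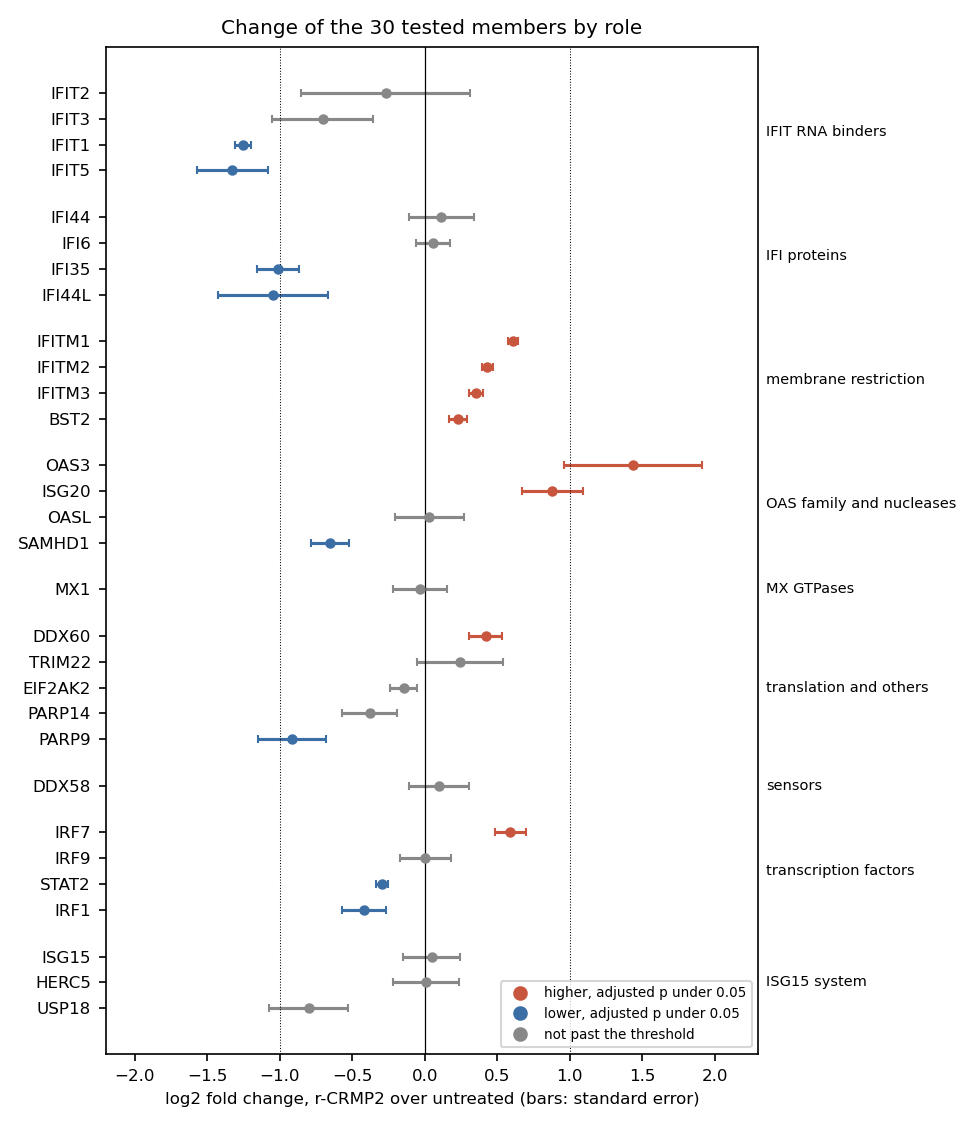
Log2 fold change (r-CRMP2 over untreated, TMM scaling) of the 30 tested members by role, with the standard error from the spread between replicates as bars and dotted lines at -1 and 1. The 4 membrane genes lie to the right of 0 (BST2 moves to -0.08 with library size alone) and IFIT1, IFIT5, IFI35 and IFI44L lie at or beyond -1.

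The IFIT proteins bind foreign RNA, such as RNA whose cap lacks methylation, and block its translation. Their 4 genes lie side by side on chromosome 10 (91061706 to 91180759, hg19), and 2 of the 4 fell. IFIT1 (91152303 to 91166244) stood at 4.13, 4.20 and 3.95 CPM in untreated replicates 1, 2 and 3 and at 1.83, 1.72 and 1.61 CPM in r-CRMP2 replicates 1, 2 and 3. The groups lay far apart, and the gene fell by 1.25 on the log2 scale (a 2.38-fold lower level, SE 0.06 from the spread between replicates, adjusted p = 1.69e-05). IFIT1 had 103 to 115 counts untreated and 34 to 39 with r-CRMP2, so an SE this small can understate the counting error. For IFIT5 (91174325 to 91180759) the untreated values were 2.19, 2.32 and 2.08 CPM and the r-CRMP2 values 1.22, 0.708 and 0.697 CPM. Its groups did not overlap, r-CRMP2 replicate 1 was the highest of its group, and the log2 fold change was -1.33 (SE 0.25, adjusted p = 0.000517). IFIT3, which binds IFIT1 and stabilizes it, ranged from 1.64 to 1.83 CPM untreated and from 0.697 to 1.67 CPM with r-CRMP2. Those groups overlapped through r-CRMP2 replicate 2 alone, and the log2 fold change of -0.70 (SE 0.35) did not pass (adjusted p = 0.0583). Without that library it was -1.11 (adjusted p = 0.00681). It also passed with library size alone (-1.01, adjusted p = 0.00773), without a filter on low counts (adjusted p = 0.046) and with at least 10 counts in every library (adjusted p = 0.037). IFIT2 had 9 to 30 counts per library and a log2 fold change of -0.27 (SE 0.58, adjusted p = 0.625). IFIT2 shares a stretch of 356 bases with the transcript AL353751.1.

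Of the IFI genes, named for their induction by interferon, 2 of 4 tested fell. IFI35, whose product binds the related protein NMI, was the more abundant (chromosome 17, 41158742 to 41166476). It had 8.56, 8.56 and 7.90 CPM in the untreated libraries and 3.79, 3.59 and 4.96 CPM in the r-CRMP2 libraries. The groups were well apart, with a log2 fold change of -1.01 (SE 0.15, adjusted p = 1.04e-05). IFI44L (chromosome 1, 79086067 to 79111830) had 1.55, 2.44 and 2.08 CPM untreated and 0.702, 0.708 and 1.48 CPM with r-CRMP2. The lowest untreated and the highest r-CRMP2 library nearly met, and the log2 fold change was -1.04 (SE 0.38, adjusted p = 0.0083). IFI44, its neighbour on the same strand, had 6 to 13 counts per library and a log2 fold change of 0.11 (SE 0.22, adjusted p = 0.84). IFI6, a protein that inhibits cell death, lay between 5.34 and 6.98 CPM in all 6 libraries (log2 fold change 0.06, adjusted p = 0.746).

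The membrane genes rose by small amounts with TMM, but with library size alone BST2 turned and IFITM2 and IFITM3 lost their calls. The IFITM proteins stop viruses from fusing with the cell's membranes, and their 3 genes lie within 1 cluster on chromosome 11 (308107 to 320914, hg19). IFITM1 stood at 443, 420.5 and 421 CPM in the untreated libraries and at 649.9, 671 and 636 CPM in the r-CRMP2 libraries. This was the tightest of the shifts, with a log2 fold change of 0.61 (1.52-fold, SE 0.03, adjusted p = 6.61e-08). IFITM2 had 254, 242 and 234 CPM untreated and 325, 335 and 326 CPM with r-CRMP2 (log2 fold change 0.43, SE 0.04, adjusted p = 5.06e-06). IFITM3 had 555, 534 and 538 CPM untreated and 657, 733 and 688 CPM with r-CRMP2 (log2 fold change 0.35, SE 0.05, adjusted p = 7.53e-05). No r-CRMP2 library overlapped an untreated one in any of the 3 genes.

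BST2, or tetherin, which holds budding viruses at the cell surface, lies on chromosome 19 (17513748 to 17516457). It had 205, 205 and 209.6 CPM untreated and 223, 257 and 246 CPM with r-CRMP2. The r-CRMP2 libraries were all higher, by 0.23 on the log2 scale (SE 0.06, adjusted p = 0.00478). Scaling decided these calls: with library size alone the log2 fold change was -0.08 for BST2 (adjusted p = 0.204), 0.04 for IFITM3 (adjusted p = 0.493) and 0.12 for IFITM2 (adjusted p = 0.0563), while IFITM1 still rose. The mean deposited TPM of BST2 was likewise lower with r-CRMP2, at 461 ± 15.5 against 494 ± 10.6 (SD, n = 3), and the groups did not overlap. IFITM1 and IFITM2 share 382 bases at 99.7% identity, IFITM1 and IFITM3 share 109 bases at 100%, and IFITM3 and IFITM2 share 139 bases at 99.3%, so reads may be split among them and the values of each are uncertain. An antisense gene (ENSG00000251661.3) spans IFITM3 at a mean of 0.612 CPM.

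Enzymes that make or cut nucleic acid, or deplete nucleotides, moved in both directions. The OAS proteins make 2',5'-linked oligoadenylate on double-stranded RNA and so switch on RNase L. OAS3 (chromosome 12, 113376238 to 113411054), the member with the largest log2 fold change, averaged under 1 CPM and its library values were chosen for display after they were seen. It had 15, 11 and 6 counts in the untreated libraries and 13, 29 and 28 counts in the r-CRMP2 libraries, which is 0.539, 0.448 and 0.219 CPM against 0.609, 1.47 and 1.22 CPM. The closest pair of libraries differed by less than the spread within either group, and the log2 fold change was 1.43 (SE 0.47, adjusted p = 0.00743). With 6 counts in 1 library, OAS3 was not tested when at least 10 counts were asked of every library. OAS1 had 1 to 5 counts and OAS2 had 1 to 6 counts per library, and OASL had 8 to 17 counts with a log2 fold change of 0.03 (SE 0.24, adjusted p = 0.953).

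ISG20, an exonuclease that degrades single-stranded RNA, rose (chromosome 15, 89178868 to 89199575). It had 9.24, 8.52 and 6.25 CPM untreated and 12.8, 17.2 and 14.2 CPM with r-CRMP2. All r-CRMP2 libraries were higher, by 0.88 on the log2 scale (SE 0.21, adjusted p = 2.9e-05). SAMHD1, which depletes the nucleotides that viruses need to copy DNA, moved the other way (chromosome 20, 35520227 to 35580246). It had 19.9, 23.8 and 26.4 CPM untreated and 14.1, 14.4 and 15.9 CPM with r-CRMP2. These groups did not overlap, and the log2 fold change was -0.66 (SE 0.13, adjusted p = 2.6e-05). SAMHD1 overlaps TLDC2 on the opposite strand over 2412 bases, but TLDC2 averaged 0.547 CPM.

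Of the genes that act on translation, ubiquitin-like marks or cell death, 1 of 5 tested rose and 1 fell. PARP9, a partner of the ubiquitin ligase DTX3L, lies on chromosome 3 (122246757 to 122283523). It had 3.06, 2.77 and 3.80 CPM untreated and 1.31, 2.12 and 1.70 CPM with r-CRMP2. No library of 1 group reached the other, and the log2 fold change was -0.91 (SE 0.23, adjusted p = 0.0022). DTX3L, which overlaps PARP9 by 339 bases on the opposite strand, had a log2 fold change of -0.45 (adjusted p = 0.00529), and reads in the overlap cannot be assigned without strand. DDX60, a helicase that aids RIG-I, is on chromosome 4 (169137442 to 169239958). It had 3.42, 3.10 and 3.33 CPM untreated and 4.82, 4.60 and 3.79 CPM with r-CRMP2. The r-CRMP2 libraries were all higher, by 0.42 on the log2 scale (SE 0.11), and the adjusted p of 0.0426 was the closest to the threshold among the calls. That call was lost with library size alone (0.11, adjusted p = 0.587), without a filter on low counts (0.41, adjusted p = 0.0764), with DESeq2 (adjusted p = 0.06) and without any 1 of 5 of the libraries (adjusted p from 0.0587 to 0.121). EIF2AK2, the kinase PKR that halts translation, lay between 23.8 and 30.9 CPM (log2 fold change -0.14, adjusted p = 0.155), but with library size alone it passed as lower (-0.45, adjusted p = 0.000405). PARP14 had a log2 fold change of -0.38 (adjusted p = 0.115), which was -0.69 with library size alone (adjusted p = 0.00557), and TRIM22 one of 0.24 (adjusted p = 0.554). The GTPase MX1, which traps viral ribonucleoproteins, lay between 1.09 and 1.62 CPM in all libraries (log2 fold change -0.03, adjusted p = 0.933).

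**Figure D3:**
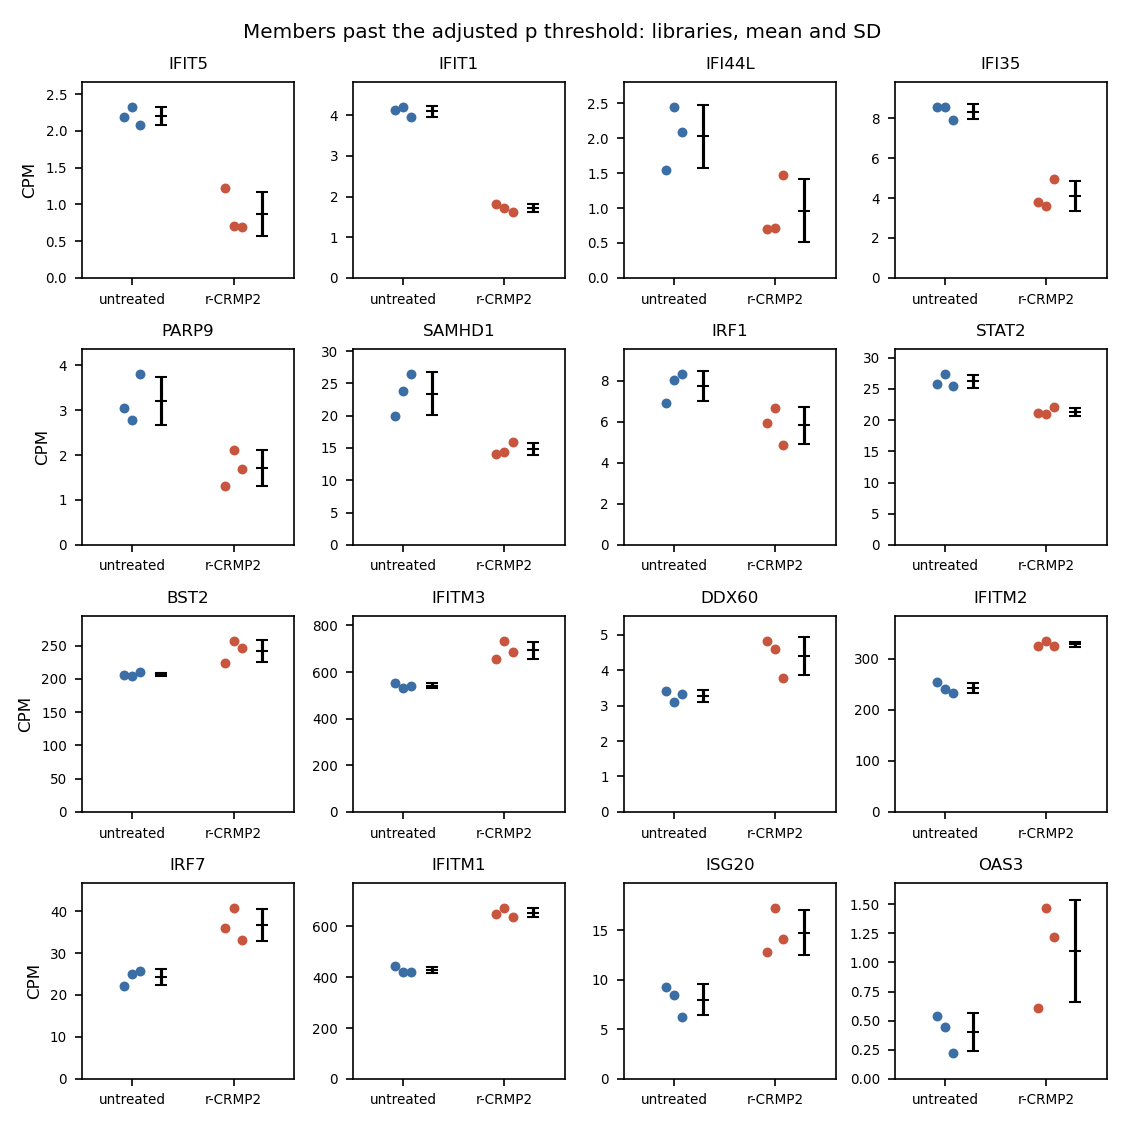
CPM in each library of the 16 members past the adjusted p threshold, from the largest fall (IFIT5) to the largest rise (OAS3), with the group mean and SD (n = 3) in black beside the points. In each panel the axis starts at 0 and the points of the 2 groups do not overlap. The CPM are scaled by TMM. In TPM the groups of DDX60 and OAS3 do overlap, and every r-CRMP2 library of BST2 lies below the untreated ones (444 to 474 against 482 to 503 TPM).

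Among the factors that carry the response, IRF7 rose while STAT2 and IRF1 fell. IRF7, which drives the genes of type I interferons, lies on chromosome 11 (612555 to 615999). It had 22.2, 25.0 and 25.6 CPM untreated and 35.9, 40.7 and 33.1 CPM with r-CRMP2. These values were well separated (log2 fold change 0.59, SE 0.11, adjusted p = 1.19e-05). STAT2, the ISGF3 subunit that activates transcription, had 25.8, 27.4 and 25.5 CPM untreated and 21.1, 20.9 and 22.1 CPM with r-CRMP2 (chromosome 12, 56735381 to 56754037). The spread within each group was small beside this gap, and the log2 fold change was -0.29 (SE 0.04, adjusted p = 0.00411). IRF1, an activator that responds mainly to interferon gamma, had 6.94, 8.03 and 8.33 CPM untreated and 5.94, 6.67 and 4.88 CPM with r-CRMP2 (chromosome 5, 131817301 to 131826465). Untreated replicate 1 and r-CRMP2 replicate 2 nearly touched (log2 fold change -0.42, SE 0.15, adjusted p = 0.0193). The call for IRF1 was lost without untreated replicate 2 (adjusted p = 0.0617), without untreated replicate 3 (adjusted p = 0.0758) and without r-CRMP2 replicate 3 (adjusted p = 0.126). IRF9, the DNA-binding subunit of ISGF3, lay between 6.77 and 9.88 CPM in all libraries, with a log2 fold change of 0.00 (SE 0.18, adjusted p = 0.98). The full transcript of IRF9 (1838 bases) is shared with the transcript of AL136295.5, so its counts are uncertain. IRF1 shares stretches of 118 to 179 bases with 6 other genes.

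None of the 3 tested genes of the ISG15 system passed. ISG15, a ubiquitin-like protein that is joined to other proteins, had 6.36, 5.62 and 5.01 CPM untreated and 4.63, 6.98 and 6.01 CPM with r-CRMP2. The r-CRMP2 libraries held both the lowest and the highest value (log2 fold change 0.05, SE 0.20, adjusted p = 0.816). HERC5, the ligase that attaches ISG15, had a log2 fold change of 0.01 (SE 0.23, adjusted p = 0.984). USP18, which removes ISG15 and dampens signaling at the interferon receptor, had 0.899, 1.34 and 1.13 CPM untreated and 0.468, 0.859 and 0.610 CPM with r-CRMP2. All r-CRMP2 libraries were lower, but the log2 fold change of -0.80 (SE 0.27) did not pass (adjusted p = 0.0613). Without r-CRMP2 replicate 2 it was -1.04 (adjusted p = 0.0427), with library size alone -1.11 (adjusted p = 0.0103) and with at least 10 counts in every library -0.82 (adjusted p = 0.0301). USP18 shares 917 bases with USP41 at 98.7% identity, which makes its counts uncertain.

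Of the receptors of viral RNA, DDX58, also called RIG-I, lay between 1.26 and 1.87 CPM (log2 fold change 0.10, SE 0.21, adjusted p = 0.782). The other sensor on the list, IFIH1 (MDA5), was among the 7 members that were not tested. IFIH1 had 1 to 6 counts per library, XAF1 had 1 to 4, HERC6 had 3 to 9, IFI27 had 7 to 14 and MX2 had 6 to 20, beside OAS1 and OAS2 above. These genes had too few counts for the main test, so a change in them was neither called nor excluded. HERC6 was lower in all r-CRMP2 libraries, at 0.131 to 0.202 CPM against 0.216 to 0.367 CPM untreated. In the other members that were not tested the groups overlapped.

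Members that are neighbours on a chromosome did not all pass the test alike. With a gap of under 100000 bases between members, 16 of them fell into 6 clusters. The 3 IFITM genes all rose with TMM, and IFITM1 alone with library size only, whereas of the 4 IFIT genes 2 fell and 2 did not pass. All 4 IFIT genes had a negative log2 fold change, from -1.33 to -0.27. In the pair IFI44L and IFI44 only the first passed, and in the cluster of OAS1, OAS3 and OAS2 only OAS3 had enough counts to be tested. Differences between neighbours were not themselves tested.

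Level and change were weakly related over the 30 tested members (Spearman's rho = 0.25 between mean TPM and log2 fold change), as over all 16222 genes (rho = 0.32). Genes share libraries and depth, so this is a description. By mean deposited TPM, 7 of the 8 members that rose and 8 of the 8 that fell moved in the direction of the test, BST2 being the exception. TPM does not include the TMM factors, so a lower TPM is no separate check of a fall. Of the members that rose, DDX60 had 1.26 to 1.35 TPM untreated and 1.22 to 1.61 with r-CRMP2, so its groups overlapped. Those of OAS3 did too, at 0.0808 to 0.195 and 0.186 to 0.408 TPM.

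**Figure D4:**
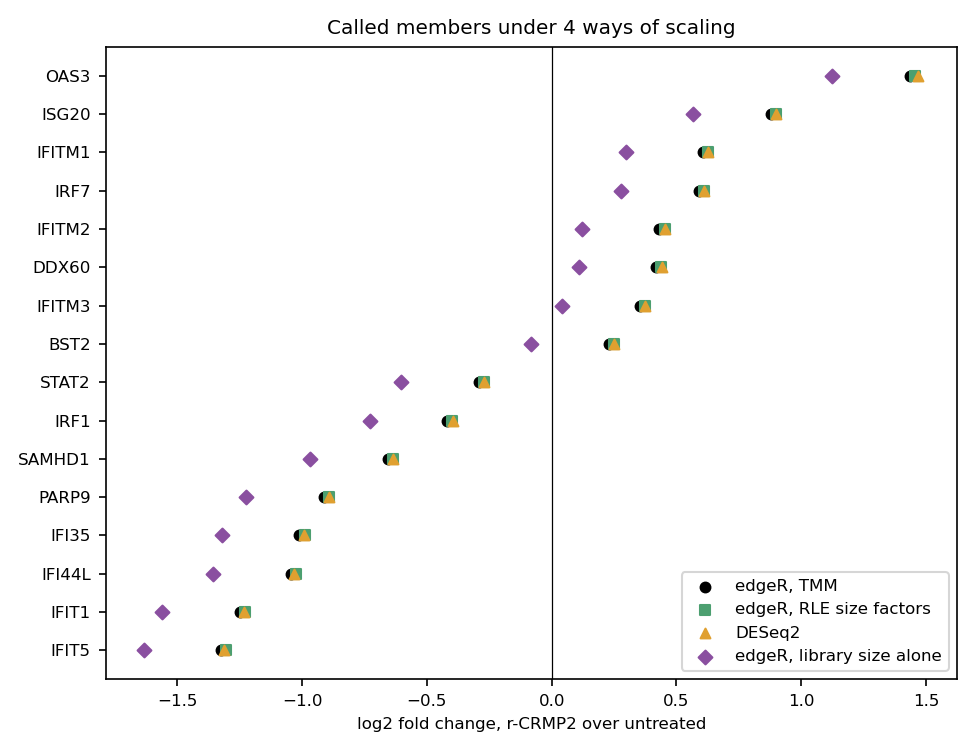
Log2 fold change (r-CRMP2 over untreated) of the 16 called members with edgeR and TMM, edgeR and RLE size factors, DESeq2, and edgeR with library size alone. The last of these lies to the left of the others by about the shift of all genes, and moves BST2 to -0.08 and IFITM3 to 0.04.

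The interferons looked at were at or near the limit of detection. They were a list written by hand that holds only some of the alpha interferon genes. Of the 14 genes of that list that were found, none had enough counts to be tested, and IFNG had 0 counts in all 6 libraries. IFNB1 had at most 1 count per library. The most abundant ligand on the list, IFNE, the epsilon interferon of the female reproductive tract, had 21, 10 and 8 counts untreated and 4, 0 and 2 counts with r-CRMP2. IFNL3 had between 0 and 8 counts.

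The type I receptor subunit IFNAR1 fell and, with TMM but not with library size alone, the gamma receptor subunit IFNGR2 rose. These 2 were the only ones of 6 receptor genes that passed. IFNAR1 had 32.2, 31.8 and 31.0 CPM untreated and 18.6, 13.9 and 14.2 CPM with r-CRMP2. The r-CRMP2 libraries lay far below the others (log2 fold change -1.02, SE 0.14, adjusted p = 5.44e-08). Its partner IFNAR2 had a log2 fold change of -0.12 (adjusted p = 0.226), and IFNGR1 one of -0.09 (adjusted p = 0.372). IFNGR2 rose by 0.27 on the log2 scale (adjusted p = 0.00445), but with library size alone its log2 fold change was -0.04 (adjusted p = 0.63). Both receptors of interferon lambda had small values that did not pass, -0.15 for IFNLR1 and -0.13 for IL10RB.

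Of the kinases behind the receptors, JAK1 rose (log2 fold change 0.40, adjusted p = 1.86e-05), while JAK2 (-0.44, adjusted p = 0.034) and TYK2 (-0.17, adjusted p = 0.0285) fell. With library size alone JAK1 stood at 0.09 and no longer passed (adjusted p = 0.189).

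In the list of other sensors and their adaptors, 1 of 12 tested genes rose and 8 fell, where 28.2% of all genes tested rose and 30.1% fell. IKBKE, a kinase that activates IRF3 and IRF7, fell past both thresholds, but past the fold threshold only narrowly (log2 fold change -1.006, adjusted p = 2.08e-05). The adaptor MYD88 fell by 0.88 on the log2 scale (adjusted p = 4.11e-07) and TRAF3 by 0.74 (adjusted p = 1.35e-07). IRF3, the factor that starts interferon transcription, fell as well (log2 fold change -0.45, adjusted p = 5.53e-05). TICAM1, the adaptor of TLR3, was the gene that rose (log2 fold change 0.48, adjusted p = 3.25e-05), a call lost with library size alone (0.17, adjusted p = 0.0841). The other falls were in TMEM173 (STING), TRIM25, MAVS and TREX1, between -0.39 and -0.21.

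Among negative regulators of the pathway, 5 of 10 tested rose and 1 fell, beside the same 28.2% and 30.1% of all genes. SOCS3, an inhibitor of JAK kinases, had 104, 103 and 104 CPM untreated and 173, 233 and 224 CPM with r-CRMP2. All r-CRMP2 libraries were higher (log2 fold change 1.02, SE 0.14, adjusted p = 7.72e-09). IRF2, PTPN1, IRF2BP2 and PTPN2 rose by 0.34 to 0.66 on the log2 scale, and of these only PTPN2 lost its call with library size alone (0.03, adjusted p = 0.802). IRF2BP1, a corepressor that binds IRF2, fell (log2 fold change -1.38, adjusted p = 8.12e-09). SOCS1 had 2 to 12 counts per library and was not tested. The ISG15 enzymes UBA7 and UBE2L6 did not pass.

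A list of 47 other interferon-stimulated genes had 31 tested, of which 3 rose, 15 fell and 13 did not pass, with a median log2 fold change of -0.18. TNFSF10, the death ligand TRAIL, had 13.5, 13.5 and 14.8 CPM untreated and 3.84, 4.80 and 3.88 CPM with r-CRMP2. This was the lowest value on the list (log2 fold change -1.74, SE 0.11, adjusted p = 1.56e-09). SLFN5 (-1.47, adjusted p = 1.67e-09) and SAMD9 (-1.12, adjusted p = 0.0403) also fell past both thresholds, SAMD9 from below 1 CPM. PML, LY6E and LGALS3BP rose by 0.59, 0.42 and 0.26 on the log2 scale, and with library size alone LY6E stood at 0.11 (adjusted p = 0.078) and LGALS3BP at -0.06 (adjusted p = 0.336). RSAD2, an inducible antiviral enzyme also called viperin, had 0 to 4 counts per library. Over all of these lists, 11 of 66 tested genes rose (16.7%) and 27 fell (40.9%), beside the 28.2% and 30.1% of all genes, with a median log2 fold change of -0.12. With library size alone 5 rose and 42 fell.

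**Figure D5:**
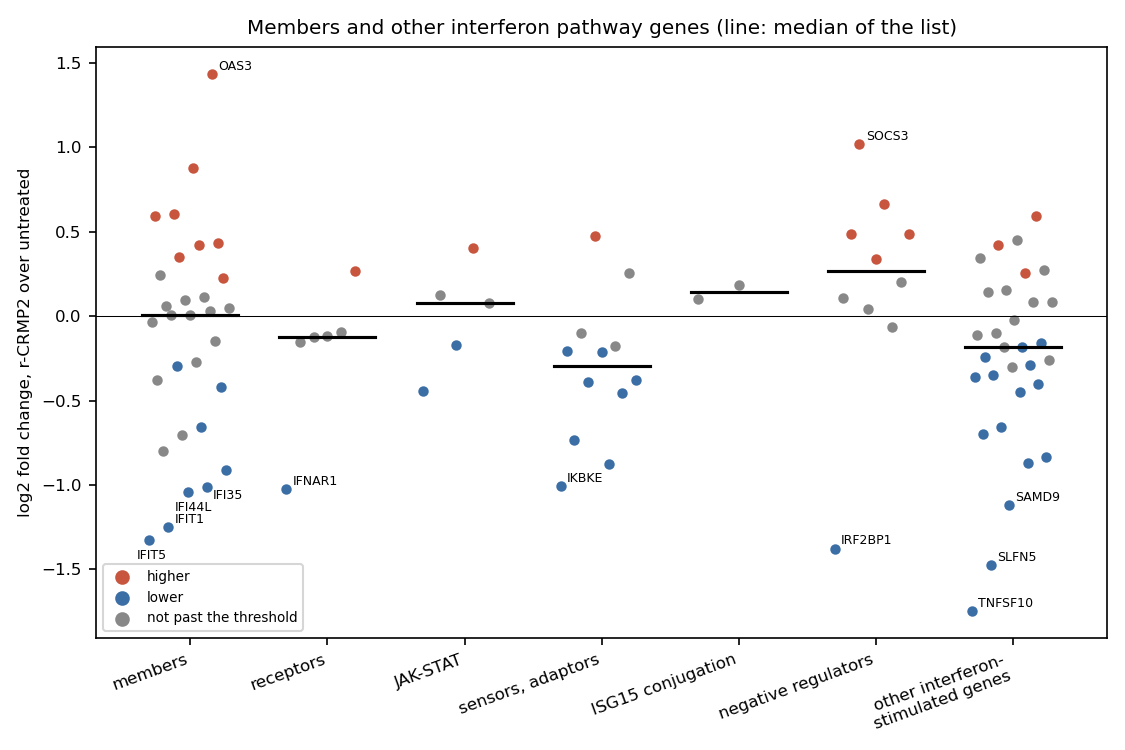
Log2 fold change (r-CRMP2 over untreated, TMM scaling) of the tested members and of tested genes in 6 other lists of the interferon pathway, 1 point per gene, with the median of each list as a black line. Named genes are past both thresholds, among them OAS3 and SOCS3 above 1 and TNFSF10 lowest at -1.74.

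Markers of the labelled cell type were mixed. The epithelial keratins KRT8 and KRT18 averaged 1266 ± 12.9 and 1251 ± 29.2 CPM in the untreated libraries (SD, n = 3), whereas the epithelial genes CDH1 and WT1 had at most 5 counts in any library. The summed level of the 10 epithelial markers was 3232 to 3313 CPM untreated and 3292 to 3569 CPM with r-CRMP2. Of 8 epithelial markers tested 2 rose and 2 fell, beside 28.2% and 30.1% of all genes tested. MUC1 rose past both thresholds (log2 fold change 1.10). KRT18 rose with TMM (0.20) but turned to -0.11 with library size alone. KRT7 (-0.21) and MUC16 (-0.36) fell. The 10 fibroblast markers summed to 590 to 661 CPM untreated and 522 to 545 CPM with r-CRMP2, with FAP at 4 to 9 counts. Of these, 9 were tested, 4 rose and 2 fell, beside the same shares of all genes, with a median log2 fold change of 0.21. COL1A1, the most abundant, fell from 419 ± 34.6 to 316 ± 12.6 CPM and PDGFRB fell by 0.41 on the log2 scale, whereas LUM, PDGFRA, COL1A2 and THY1 rose by 0.17 to 0.53 with TMM, and with library size alone none of the 4 passed as higher and THY1 turned to -0.14. The 11 immune markers summed to 24.4 to 28.4 CPM untreated and 74.5 to 80.7 CPM with r-CRMP2, a difference that lay mostly in CD68, which rose from 23.1 ± 2.33 to 74.3 ± 3.15 CPM. The defining immune genes PTPRC, CD3E and MS4A1 had at most 4 counts in any library. The part of these markers in the changes of the interferon-stimulated genes was not tested.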

How the data were processed

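Polyadenylated RNA of the 6 libraries was sequenced as read pairs of 150 bp. Raw counts per gene, without normalization, and TPM values were deposited by the authors. TPM recomputed from the counts and the deposited gene lengths matched the deposited TPM to within 4.72e-06. The submitters' processing notes name FastQC, HISAT2, DESeq2 and the build hg19. The counting tool, and whether strand was used, are not given in the sources used here, so overlapping and antisense genes cannot be told apart. Each of 2 gene names stood on 2 rows, none of them a member.

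All 6 libraries entered 1 edgeR fit of the quasi-likelihood kind, after TMM scaling and filterByExpr, under R 4.3.3 with edgeR 4.0.16 and limma 3.58.1. P-values were adjusted by Benjamini-Hochberg over all 16222 genes tested, and each SE was computed from replicate log2 CPM (prior count 2). Such an SE can be smaller than the counting error in genes with few counts. The thresholds were an adjusted p of 0.05 and, where stated, an absolute log2 fold change of 1. Values per library are given for called members with a mean of at least 1 CPM (at most 20), and other genes shown by library were chosen after their values were seen. Pathway genes are named where past both thresholds or where they define a group, and others were added in the same way. The members and all gene lists were chosen with earlier results of these data known.

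Each fit was repeated without 1 library at a time, with the replicate number as a block, with library size alone, with RLE size factors, with DESeq2 1.42.0, without a filter, with a minimum of 10 counts in every library, and with the fold threshold added to the call. The fitting step was tested first on simulated data with as many rises as falls. That run did not test a difference in scaling between the groups like the one seen here. Stretches of at least 100 bases at 97% identity or more between transcripts of different genes were searched in GENCODE transcripts with BLAST+ 2.17.0, and 11 of 37 members had one or were matched by another member's. Protein identity within families had been planned and was not analysed here. Promoter letters were searched on both strands in the RefSeq table, where DDX58 is listed as RIGI. The deposited gene positions are hg19 and were not converted. Intervals and floors for low counts cover counting error only. The result for 1 pathway gene is not reported here.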

Additional observations from a re-analysis of the deposited data

How the results depend on the processing

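Of the 16 members that passed the test, 11 kept their call and direction in every fit run, OAS3 among them in the fits that tested it. The others were IFITM2, IFITM3, BST2, DDX60 and IRF1, as described with each. In at least 1 fit IFIT3, USP18, PARP14 and EIF2AK2 gained a call as lower. With library size alone, 2171 of all genes rose and 8449 fell, 489 and 2553 of them past both thresholds, 4 members rose, 7 fell past both thresholds, 5 pathway genes rose and 42 fell, and the median log2 fold change of the members was -0.30. In that fit the log2 fold change turned to -0.084 for BST2, -0.21 for DDX58, -0.30 for HERC5, -0.19 for IFI44, -0.25 for IFI6, -0.30 for IRF9, -0.26 for ISG15, -0.27 for OASL and -0.070 for TRIM22. The shift of all genes in that fit follows from leaving out the TMM factors. With at least 10 counts in every library, 946 genes fell past both thresholds and 0 members rose past both (7 rose at the adjusted p alone, from edgeR's quasi-likelihood test, and OAS3 was not tested), with HERC5 at -0.0061 and IRF9 at -0.010. Without a filter, HERC5 stood at -8.04e-06 and IRF9 at -0.0031. The fold threshold left 831 of all genes higher and 1437 lower, with 1 member higher and 4 lower.

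The replicate numbers gave no evident pairing (correlations of deviations -0.02, 0.0038 and -0.03). With the number as a block, IFIT3 passed (log2 fold change -0.74, adjusted p = 0.0468), DDX60 did not (0.42, adjusted p = 0.0556), IRF9 turned to -0.0030, and no other member changed its call or direction. When 1 library was left out, the members that fell past both thresholds numbered from 2 (without r-CRMP2 replicate 1) to 5. Values that changed sign ranged from -0.16 to 0.12 for IRF9, -0.19 to 0.23 for OASL, -0.018 to 0.13 for IFI6, -0.077 to 0.21 for ISG15, -0.017 to 0.46 for TRIM22, -0.063 to 0.28 for DDX58, -0.15 to 0.19 for HERC5, -0.13 to 0.31 for IFI44 and -0.11 to 0.11 for MX1, none past the threshold. Other causes of these changes were not tested. The 7 members with few counts limit what could be seen.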
